A study of Mus musculus with 6 samples.

Results

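Pan-myeloid leukocyte genes are genes that macrophages, monocytes and related white blood cells share and that fibroblasts are not known for. A list of 38 such genes was followed through RNA sequencing of mouse embryonic fibroblasts. Members were the loci that carry one of these names in the deposited per-library files. Names matched for 34 genes in 35 loci, out of 36812 named loci used, and all 35 loci passed the filter on low counts. Msr1 had a locus on each strand. Spi1 and Pirb were listed under the older symbols Sfpi1 and Lilrb3, which were followed separately. The levels of Irf8 and Cyba were not analysed here, though their promoters were searched.

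The knockout (KO) fibroblasts came from STC1-/- mice and the wild-type (WT) fibroblasts from STC1+/+ mice, both on a C57BL/6 background. Stc1 encodes stanniocalcin-1, a secreted glycoprotein hormone. Both genotypes were grown in DMEM with fetal calf serum, penicillin and streptomycin, no treatment is given, and polyadenylated RNA was sequenced with a stranded kit. There were 3 KO and 3 WT libraries, called KO1 to KO3 and WT1 to WT3; whether each is a culture of its own is not in the labels, so the p-values speak only of how these libraries vary. Total estimated fragments were 21882092, 37934030 and 44552311 in KO1 to KO3, and 71488701, 42509592 and 51153221 in WT1 to WT3. The targeted gene had 6, 0 and 0 fragments in KO1 to KO3, where no fragment still leaves room for 0.0805 CPM in KO2 and 0.0666 CPM in KO3, against 2245, 291 and 368 fragments in WT1 to WT3. CPM are counts scaled to one effective library size. Fibroblast markers summed to between 3330 and 6630 CPM in KO libraries and between 7750 and 27000 CPM in WT libraries, so the labelled cell type was present throughout.

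Myeloid cells descend from blood precursors under the transcription factor PU.1, encoded by Spi1, and depend for survival on colony-stimulating factor 1, which fibroblasts secrete, acting through the receptor encoded by Csf1r. Many of their activating receptors carry no signalling tail of their own and pair with small adaptors that hold an immunoreceptor tyrosine-based activation motif, such as the products of Tyrobp and Fcer1g. Fibroblasts dissected from embryos can carry embryonic macrophages into culture. In RNA from a whole culture, fewer cells of a type and less RNA per cell cannot be told apart.

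The members moved together, over a wide range, and the order of the libraries cut across genotype. Ptprc, which encodes the pan-leukocyte phosphatase CD45, stood at 43.6, 3.22 and 3.86 CPM in KO1 to KO3, against 0.637, 36.5 and 285 CPM in WT1 to WT3. WT3 was the highest library and WT1 the lowest, with all 3 KO libraries between them, so the groups overlapped. The same order of all 6 libraries, WT3 then KO1, WT2, KO3, KO2 and WT1, was seen at 21 of the 35 loci. WT3 was highest at 34 loci and WT1 was lowest at 32. Among 29 single-gene loci, without Gpnmb and without Aif1, whose lowest library had 1 fragment, the highest library exceeded the lowest by 34.8 to 1020 fold, with a median of 430.

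**Figure D1:**
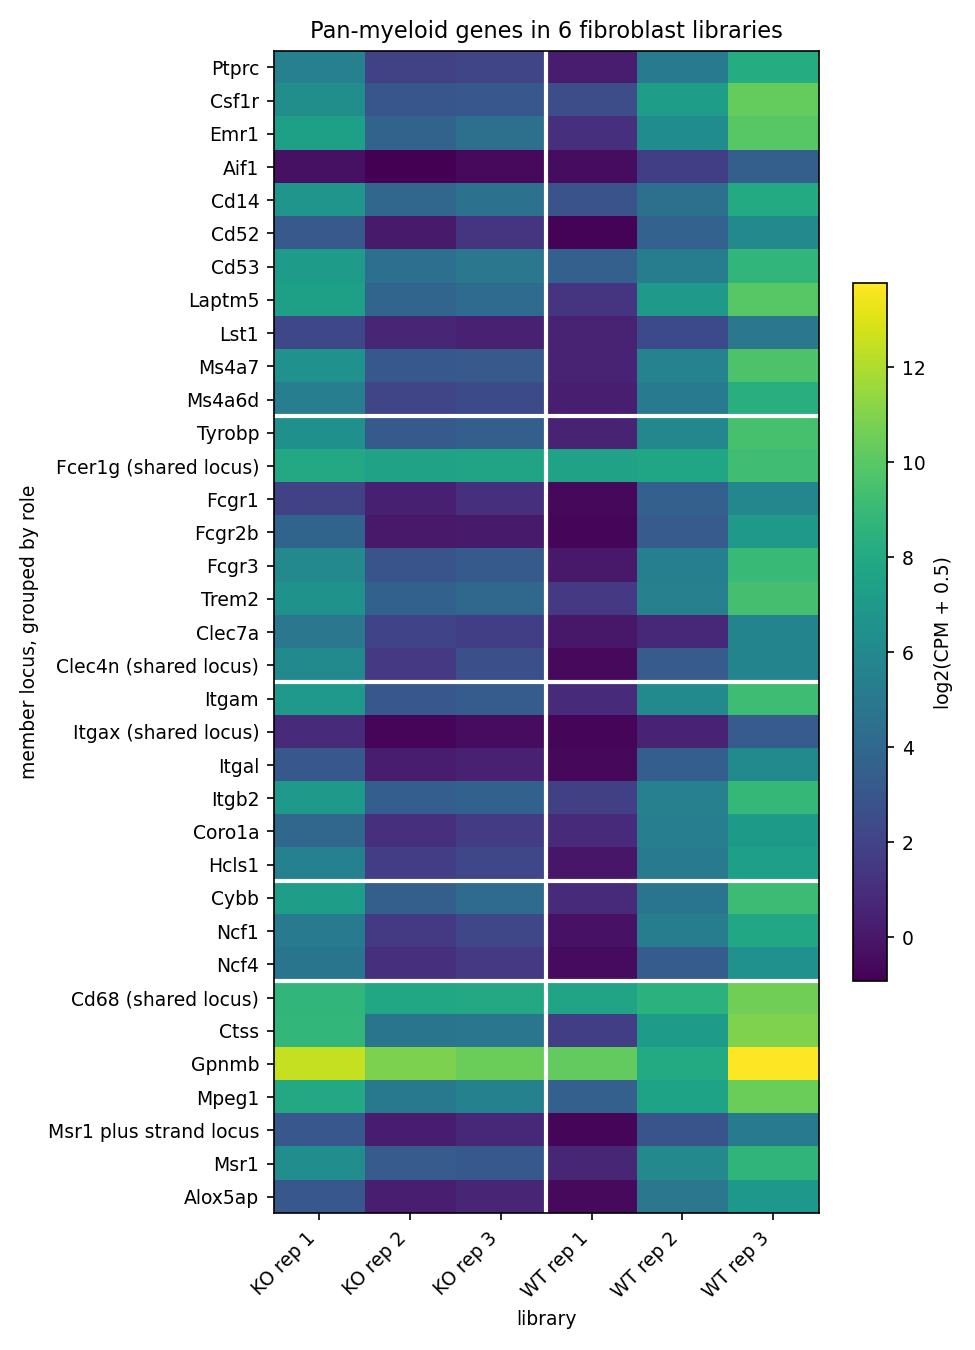
Level of each member locus (rows, grouped by role) in each library (columns, KO left and WT right), as log2(CPM + 0.5) by colour. WT replicate 3 is the brightest column at 34 of 35 loci and WT replicate 1 the darkest at 32, and Gpnmb and the shared loci of Fcer1g and Cd68 stay bright in every library.

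The spread of the members was far from that of a typical gene. The SD of log2(CPM + 0.5) over the 6 libraries had a median of 2.6 over the members and 0.32 over all 15673 genes tested. Of the 35 member loci, 33 lay in the top 5% of genes by this SD and 25 in the top 1%. The exceptions were loci whose counts include another gene: the Fcer1g locus, which the files share with another gene, had an SD of 0.66, and the Cd68 locus, shared with Eif4a1, Senp3 and small nucleolar RNAs, had 1.07. Pairs of member loci had a median Pearson r of 0.95 across libraries (595 pairs, n = 6 libraries), and the 435 pairs of single-gene loci without Gpnmb had a median of 0.97 and a lowest of 0.47. These correlations describe the same 6 libraries at the same depths and carry no p. Ptprc itself had an r over 0.9 with 29 of the other 34 loci.

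**Figure D2:**
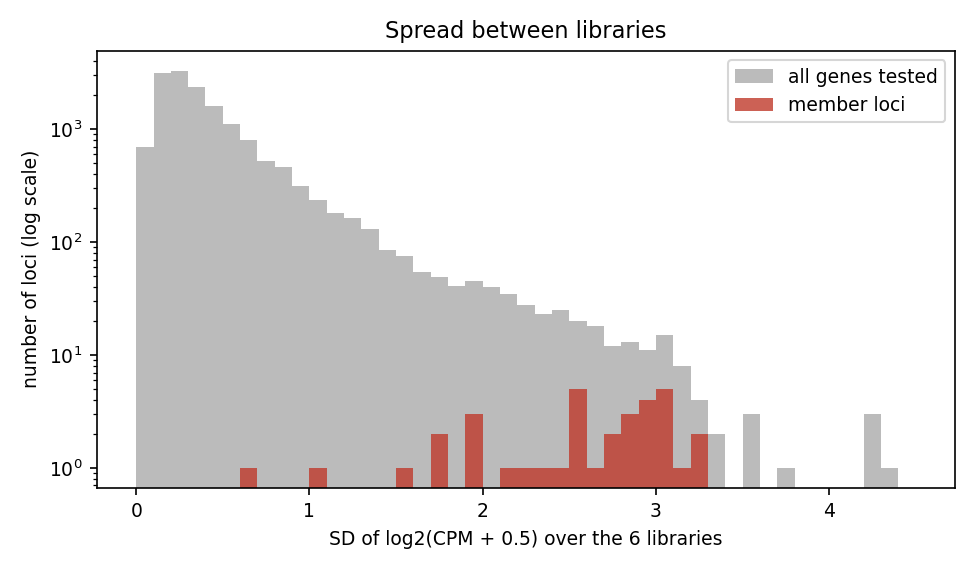
Histogram of the SD of log2(CPM + 0.5) over the 6 libraries for all 15673 genes tested (grey) and for the 35 member loci (red), with the number of loci on a log scale. The members' median of 2.6 lies in the far tail of all genes, whose median is 0.32.

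As a share of all fragments in named loci, the 30 single-gene member loci without Gpnmb held 0.247%, 0.023% and 0.0311% in KO1 to KO3, against 0.00587%, 0.143% and 1.32% in WT1 to WT3. WT1 was the deepest library and held the smallest share, 4169 fragments, while WT3 held 670988. In WT1, 19 of the 35 loci lay under 1 CPM. At 33 loci KO1, WT2 and WT3 all had at least 1 CPM.

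The gene for PU.1, itself on the list, varied with the members. Spi1, under its older symbol Sfpi1, had 24.4, 2.12 and 2.0 CPM in KO1 to KO3, against 0.354, 18.9 and 192 CPM in WT1 to WT3, with a Pearson r of 1.0 with Ptprc over the 6 libraries. The promoters of the listed genes were searched for GAGGAA, the core of the sequence that PU.1 recognises. Both strands were searched in the 250 bases before each start given by RefSeq on GRCm38.p6. RefSeq windows were found for 24 of the 38 genes, 30 windows in all, and 14 of these (46.7%) held the motif, in 12 genes, against 23.3% of 32851 windows of all genes. A match is a description and not a shown binding site, and shared regulation was not tested.

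Windows of 4 members are shown 5′ to 3′ on the gene's strand, with each match in capitals (TTCCTC is the motif on the other strand). They were picked among windows that hold a match. The windows of Cybb, Ncf1, Hcls1, Coro1a, Mpeg1 and Ms4a7, among others, held none. Ptprc (chr1:138175306-138175555, minus strand) has its match 158 bases before the start and a second RefSeq window without one, Laptm5 (chr4:130913066-130913315, plus strand) 38 bases before, Itgam (chr7:128062390-128062639, plus strand) 84 and 15 bases before, and Fcgr1 (chr3:96293970-96294219, minus strand) 55 bases before.
Ptprc: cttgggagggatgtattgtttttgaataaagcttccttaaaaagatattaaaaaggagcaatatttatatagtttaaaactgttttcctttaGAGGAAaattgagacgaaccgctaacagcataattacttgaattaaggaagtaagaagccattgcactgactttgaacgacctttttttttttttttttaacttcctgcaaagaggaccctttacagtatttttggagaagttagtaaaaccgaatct
Laptm5: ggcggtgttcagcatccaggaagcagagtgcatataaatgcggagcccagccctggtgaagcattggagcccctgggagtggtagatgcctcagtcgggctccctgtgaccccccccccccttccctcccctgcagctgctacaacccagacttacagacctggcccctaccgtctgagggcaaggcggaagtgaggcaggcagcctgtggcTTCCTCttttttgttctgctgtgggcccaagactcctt
Itgam: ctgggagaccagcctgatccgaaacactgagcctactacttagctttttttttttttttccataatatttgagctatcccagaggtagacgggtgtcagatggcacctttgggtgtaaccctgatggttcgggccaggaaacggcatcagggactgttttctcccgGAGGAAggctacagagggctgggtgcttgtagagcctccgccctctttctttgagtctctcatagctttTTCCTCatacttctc
Fcgr1: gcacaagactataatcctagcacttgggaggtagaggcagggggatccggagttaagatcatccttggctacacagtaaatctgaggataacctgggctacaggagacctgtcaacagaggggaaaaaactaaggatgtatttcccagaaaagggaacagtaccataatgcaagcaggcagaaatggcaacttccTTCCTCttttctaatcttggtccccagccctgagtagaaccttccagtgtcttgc

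The comparison of genotypes asked whether these genes differ in cells that lack stanniocalcin-1. No member was called. edgeR's quasi-likelihood test called 0 of the 35 loci in either direction at a Benjamini-Hochberg adjusted p under 0.05, as it called 0.0% of all 15673 genes, and adjusted p ran from 0.763 to 0.964 over the members. The fitted log2 fold change of KO over WT was negative at 34 loci and positive at 1, with a median of -2.43, beside -0.05 over all genes tested. The members' median was -0.79 with limma-voom, -1.01 with limma on log2(FPKM + 1) and -0.8 on log2(FPKM + 0.1). Not one locus had KO and WT libraries that did not overlap in CPM, where 10.6% of all genes had. At an unadjusted p under 0.05 there was 1 member, Aif1, on the lower side, where 2.27% of all genes passed lower and 1.6% higher.

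The direction of the fit rested on which libraries were in it. Without WT3, 22 of the 35 loci had a positive fold change, the median was 0.14, and at an unadjusted p under 0.05 there were 0 members lower, where 3.72% of all genes were, and 1 higher, where 1.6% were (edgeR called 0 at an adjusted p). Leaving out WT1 made all 35 negative, with a median of -3.0, and 8 loci lay at an unadjusted p under 0.05 on the lower side, where 8.31% of all genes did (10.1% on the higher side); their lowest adjusted p was 0.132. Those 8 were Csf1r, Aif1, Cd52, Lst1, Fcgr1, Itgal, Coro1a and Alox5ap. Without KO1 the median was -4.29, the lowest adjusted p was 0.915, and Aif1 was the 1 member at an unadjusted p under 0.05 on the lower side, where 0.877% of all genes were, with 0.858% on the higher side.

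**Figure D3:**
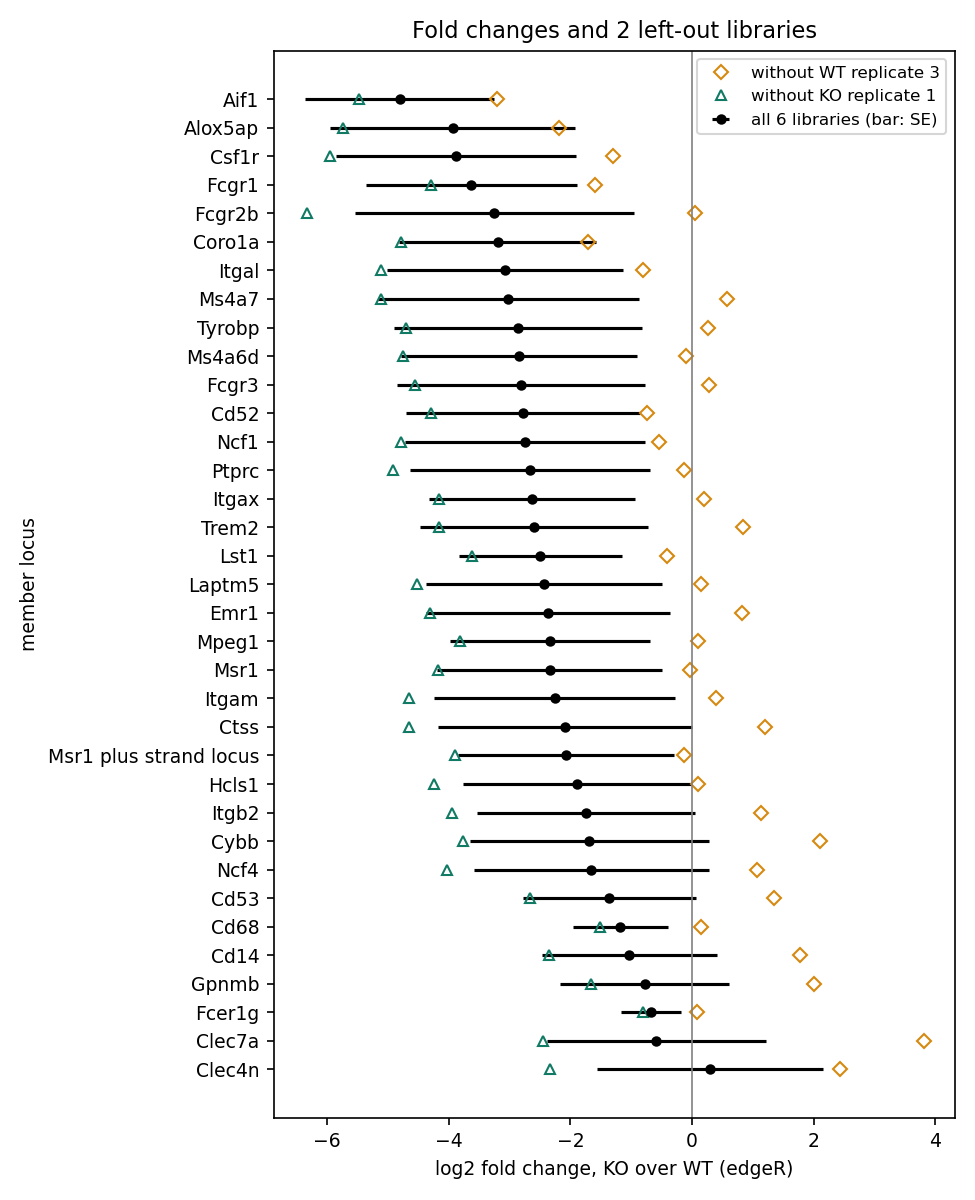
Log2 fold change of KO over WT at each member locus (rows), as black points with the standard error as bars for all 6 libraries, orange diamonds for the fit without WT replicate 3 and green triangles for the fit without KO replicate 1. With all libraries 34 of 35 points lie left of 0, and without WT replicate 3 there are 22 right of 0.

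Among the lineage receptors and surface markers, all 11 loci had a negative fold change, from -4.81 to -1.03. Csf1r, the receptor for colony-stimulating factor 1, had 81.3, 7.62 and 7.74 CPM in KO1 to KO3, against 5.28, 153 and 1270 CPM in WT1 to WT3. Its groups overlapped through WT1, and its log2 fold change was -3.88 (standard error 1.97, edgeR unadjusted p = 0.0966, adjusted p = 0.763). Its locus overlaps Hmgxb3 on the other strand, and no source used here says whether fragments were counted by strand. Aif1, which encodes the actin-bundling protein IBA1, had 0.329, 0.0268 and 0.177 CPM in KO1 to KO3, against 0.227, 2.95 and 11.2 CPM in WT1 to WT3. WT1 lay within the range of the KO libraries, and in fragments these values were 7, 1 and 8 in KO and 16, 126 and 542 in WT. Its log2 fold change of -4.81 (standard error 1.56) had an unadjusted p of 0.0219 and an adjusted p of 0.763 in edgeR, and an adjusted p of 0.0486 in DESeq2, whose background was 0.168% of genes lower.

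Emr1, the gene for the macrophage antigen F4/80, had 168, 12.9 and 22.3 CPM in KO1 to KO3, against 1.6, 74.7 and 972 CPM in WT1 to WT3. Laptm5, a lysosomal membrane protein gene of blood cells, had 173, 14.2 and 17.9 CPM in KO1 to KO3 and 2.07, 122 and 983 CPM in WT1 to WT3. Both kept the library order of Ptprc, at several times its CPM. Cd14, the lipopolysaccharide co-receptor gene, had 108, 14.6 and 24 CPM in KO1 to KO3, against 6.55, 22 and 270 CPM in WT1 to WT3. The tetraspanin gene Cd53 had 138, 21.4 and 29.3 CPM in KO1 to KO3 and 11.5, 37.9 and 435 CPM in WT1 to WT3. Cd14 and Cd53 had 41.1 and 38 fold between the highest and lowest library, below the median of the members. Cd14 had 247 to 623 fragments per 100 of Ptprc in KO libraries, against 1030 in WT1 and 60.3 to 94.6 in the other WT libraries. Cd52, encoding a small surface glycoprotein, had 8.69, 0.59 and 2.0 CPM in KO1 to KO3 and 0.0849, 12.5 and 64 CPM in WT1 to WT3, with WT2 above KO1. Ms4a7 and Ms4a6d, tetraspan genes of macrophages, kept the order of Ptprc, and Lst1, a small leukocyte membrane protein gene, ranged from 0.843 CPM in KO3 to 29.3 CPM in WT3.

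The group of adaptors, Fc receptors and paired or lectin receptors had 7 negative fold changes at 8 loci, with a median of -2.71. Tyrobp, encoding the adaptor DAP12, had 87.5, 8.85 and 10.9 CPM in KO1 to KO3, against 0.934, 58.8 and 717 CPM in WT1 to WT3. Trem2, a lipid-sensing receptor gene whose product pairs with DAP12, had 95.6, 11.9 and 16 CPM in KO1 to KO3 and 2.38, 43.8 and 703 CPM in WT1 to WT3. Receptor and adaptor shared one order of libraries, and both overlapped between the genotypes. Tyrobp overlaps Hcst, another adaptor gene, on the opposite strand. The Fcer1g locus, which counts the adaptor with another gene, had 242, 184 and 201 CPM in KO1 to KO3 and 183, 214 and 608 CPM in WT1 to WT3; it carries the mark FAIL in all 6 libraries and says little of Fcer1g.

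Receptors that bind antibody by its Fc end were also on the list. Fcgr1, the high-affinity receptor for immunoglobulin G, had 3.34, 0.805 and 1.58 CPM in KO1 to KO3, against 0.156, 11.3 and 58.8 CPM in WT1 to WT3, with a log2 fold change of -3.63 (standard error 1.74, edgeR adjusted p = 0.763). Fcgr2b, the inhibitory one, had 13.7, 0.536 and 0.599 CPM in KO1 to KO3 and 0.127, 9.42 and 130 CPM in WT1 to WT3. Fcgr3, an activating one, had 62.7, 6.78 and 8.9 CPM in KO1 to KO3 and 0.538, 42.6 and 509 CPM in WT1 to WT3. Fcgr2b and Fcgr3 kept the order of Ptprc, while Fcgr1 was higher in WT2 than in KO1. The inhibitory receptor locus Lilrb3, which holds Pirb and is shared with predicted genes, had 23.1, 2.28 and 2.17 CPM in KO1 to KO3, against 0.255, 13.9 and 205 CPM in WT1 to WT3, with a log2 fold change of -3.0 (standard error 2.09).

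The beta-glucan and mannan receptors stood apart within the group. Clec7a, encoding dectin-1, had 29.2, 3.54 and 2.93 CPM in KO1 to KO3, against 0.524, 1.17 and 51.6 CPM in WT1 to WT3. All 3 KO libraries lay above WT2, although WT2 had more Ptprc than KO2 and KO3. The locus of Clec4n, encoding dectin-2 and shared with Clec4b1, had 68, 2.36 and 5.75 CPM in KO1 to KO3, against 0.17, 9.16 and 52.1 CPM in WT1 to WT3. This locus also overlaps loci of Clec4a4, Clec4a2 and Clec4b2 on the same strand, so its counts cannot be credited to Clec4n alone. It was the only member locus highest in KO1 and the only one with a positive fold change, 0.30 on the log2 scale (standard error 1.86, edgeR adjusted p = 0.964). Without WT3 the Clec7a fold change was 3.81 on the log2 scale (unadjusted p = 0.0405, edgeR), the only member then under 0.05.

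The leukocyte integrins and cytoskeletal genes had negative fold changes at all 6 loci, between -3.2 and -1.75. Itgam, encoding CD11b, had 122, 7.96 and 9.63 CPM in KO1 to KO3, against 1.33, 69.3 and 595 CPM in WT1 to WT3. Its partner chain, encoded by Itgb2, had 132, 10.4 and 11.9 CPM in KO1 to KO3 and 3.11, 44.1 and 471 CPM in WT1 to WT3. Both chains of this receptor kept the order of Ptprc, with an r of 1.0 and 0.99 with it. Itgal, encoding CD11a, another partner of the Itgb2 chain, was scarcer, at 7.89, 0.67 and 0.821 CPM in KO1 to KO3 and 0.156, 10.6 and 67 CPM in WT1 to WT3. The Itgax locus, shared with Itgad, did not exceed 1.36 CPM outside WT3, where it had 9.39 CPM. Coro1a, an actin regulator of leukocytes, had 14.9, 1.61 and 2.57 CPM in KO1 to KO3, against 1.36, 40.2 and 133 CPM in WT1 to WT3, and Hcls1, a cortactin relative, had 46.4, 2.84 and 4.02 CPM in KO1 to KO3, against 0.481, 32.8 and 163 CPM in WT1 to WT3. Of these last 2 genes, Coro1a was higher in WT2 than in KO1 and Hcls1 was lower there.

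The phagocyte NADPH oxidase makes superoxide from a membrane core and cytosolic organisers. Cybb, its catalytic subunit, had 154, 11 and 17.8 CPM in KO1 to KO3, against 1.34, 27.1 and 562 CPM in WT1 to WT3. Ncf1, an organiser, had 33.7, 2.47 and 4.04 CPM in KO1 to KO3 and 0.368, 38.5 and 230 CPM in WT1 to WT3. Ncf4, which binds a membrane phosphoinositide, had 27.6, 1.69 and 2.35 CPM in KO1 to KO3 and 0.198, 9.88 and 89.2 CPM in WT1 to WT3. The subunits were not in one proportion in KO1 and WT2: Cybb and Ncf4 were higher in KO1, by 5.68 and 2.79 fold, while Ncf1 was 0.875 times its WT2 level there. Ncf1 overlaps Gtf2ird2 on the other strand. The fibroblast oxidase subunit Nox4 lay between 12 and 15.3 CPM in KO libraries and between 10.1 and 15.5 CPM in WT libraries.

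Lysosomal and scavenging genes included the members with the highest CPM in WT3. Ctss, encoding the protease cathepsin S, had 440, 27.2 and 28.5 CPM in KO1 to KO3, against 2.92, 141 and 1960 CPM in WT1 to WT3. Mpeg1, a pore-forming protein gene of phagocytes, had 245, 32 and 45.4 CPM in KO1 to KO3 and 11.3, 191 and 1430 CPM in WT1 to WT3. Msr1, a scavenger receptor gene, had 76.6, 9.41 and 8.14 CPM in KO1 to KO3 and 1.05, 62.7 and 412 CPM in WT1 to WT3 at its minus-strand locus. Each of these 3 genes overlapped between genotypes, with WT1 lowest and WT3 highest. The plus-strand locus named Msr1 lies inside the other and had 7.94, 0.644 and 1.15 CPM in KO1 to KO3 and 0.0991, 6.98 and 33.4 CPM in WT1 to WT3. Alox5ap, which presents arachidonic acid to 5-lipoxygenase for leukotriene synthesis, had 7.99, 0.751 and 1.09 CPM in KO1 to KO3, against 0.17, 29.3 and 119 CPM in WT1 to WT3. WT2 and WT3 lay above every KO library and WT1 below, and the log2 fold change was -3.94 (standard error 2.01, edgeR adjusted p = 0.763).

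Per length of transcript, the deposited FPKM put Gpnmb, Ctss and Tyrobp first among the members with a locus of their own in KO1, KO2 and WT3. Ctss had 288, 18 and 19.1 FPKM in KO1 to KO3, against 1.84, 92.6 and 1300 FPKM in WT1 to WT3, and Tyrobp had 153, 15.8 and 19.6 FPKM in KO1 to KO3, against 1.6, 105 and 1280 FPKM in WT1 to WT3. The Cd68 locus shows how a shared locus departs between scales: its FPKM was 1070 in KO1 and 1050 in WT3, while its CPM was 429 in KO1 and 1520 in WT3.

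Gpnmb departed from the group most. It encodes a transmembrane glycoprotein of lysosomes and melanosomes that is also made by cells outside the myeloid lineage. It had 5690, 1860 and 1400 CPM in KO1 to KO3, against 1220, 261 and 13900 CPM in WT1 to WT3, and its r with Ptprc was 0.49. WT3 was again highest, where Gpnmb was the first of all loci by fragments with 672535, but the lowest library was WT2, which held more Ptprc than KO2, KO3 or WT1. In WT1, where Ptprc had 45 fragments, Gpnmb had 86061. Alone it took 0.569%, 0.187% and 0.145% of named fragments in KO1 to KO3 and 0.121%, 0.0264% and 1.32% in WT1 to WT3. Which cells made this RNA was not tested.

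Because the total differed so widely, the makeup of the myeloid RNA was described as fragments of each member per 100 fragments of Ptprc in the same library. Over the 5 libraries with at least 100 Ptprc fragments (WT1 had 45), 15 of 34 loci were higher in every KO library, but so were 36.3% of all genes, most of which do not follow Ptprc. Only 3 were lower in every KO library, Csf1r, Itgal and Alox5ap, where 0.306% of all genes were. With WT1 included, chosen once the values were known, 8 loci were higher in every KO library (Emr1, Laptm5, Clec4n, Itgam, Cybb, Ncf4, Ctss and Msr1; 0.255% of all genes) and 2 lower (Csf1r and Itgal; 0.204%). A closer background is given by genes that do. Among the 290 loci without a member's name that follow Ptprc (r over 0.9 and SD over 1), 6.21% were higher and 6.9% lower. The 2 lower loci of 34 lie near that 6.9%, so their number is not a result about the members. The Sfpi1 and Lilrb3 loci, which hold Spi1 and Pirb of the list, were not left out of this background.

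Csf1r had 186, 237 and 201 fragments per 100 of Ptprc in KO1 to KO3, against 829, 419 and 444 in WT1 to WT3. Its KO values lay below every WT value, and their counting intervals did not meet. The Clec4n locus had 156, 73.3 and 149 per 100 in KO1 to KO3, against 26.7, 25.1 and 18.3 in WT1 to WT3, the widest gap of these loci with all 6 libraries. Ncf4 had 63.2, 52.5 and 60.9 per 100 in KO1 to KO3 and 31.1, 27.1 and 31.3 in WT1 to WT3, and Cybb had 353, 341 and 460 in KO1 to KO3 and 211, 74.4 and 197 in WT1 to WT3. These 2 oxidase genes were therefore higher relative to Ptprc in each KO library. However, the counting interval of WT1 met that of KO2 for Cybb and those of every KO library for Ncf4. Ncf1, the other oxidase member, overlapped between genotypes, at 77.2, 76.7 and 105 per 100 in KO1 to KO3 and 57.8, 106 and 80.5 in WT1 to WT3. Itgam and Laptm5 also did not overlap but lay close, with Itgam at 279, 248 and 249 per 100 in KO1 to KO3 and 209, 190 and 209 in WT1 to WT3. Itgal differed little as well, at 18.1, 20.8 and 21.3 per 100 in KO1 to KO3 and 24.4, 29.2 and 23.5 in WT1 to WT3. For Itgam, Laptm5 and Itgal the counting interval of WT1 met those of every KO library. With Laptm5 in place of Ptprc as the denominator, over all 6 libraries, Clec4n, Cybb and Ncf4 stayed higher and Csf1r and Itgal lower in every KO library. Emr1, Itgam, Ctss and Msr1 then overlapped between genotypes. Aif1, Ms4a6d, Alox5ap and Ptprc itself were also lower in every KO library, so the split depended on the denominator. The share of all genes on either side was not computed for this denominator.

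**Figure D4:**
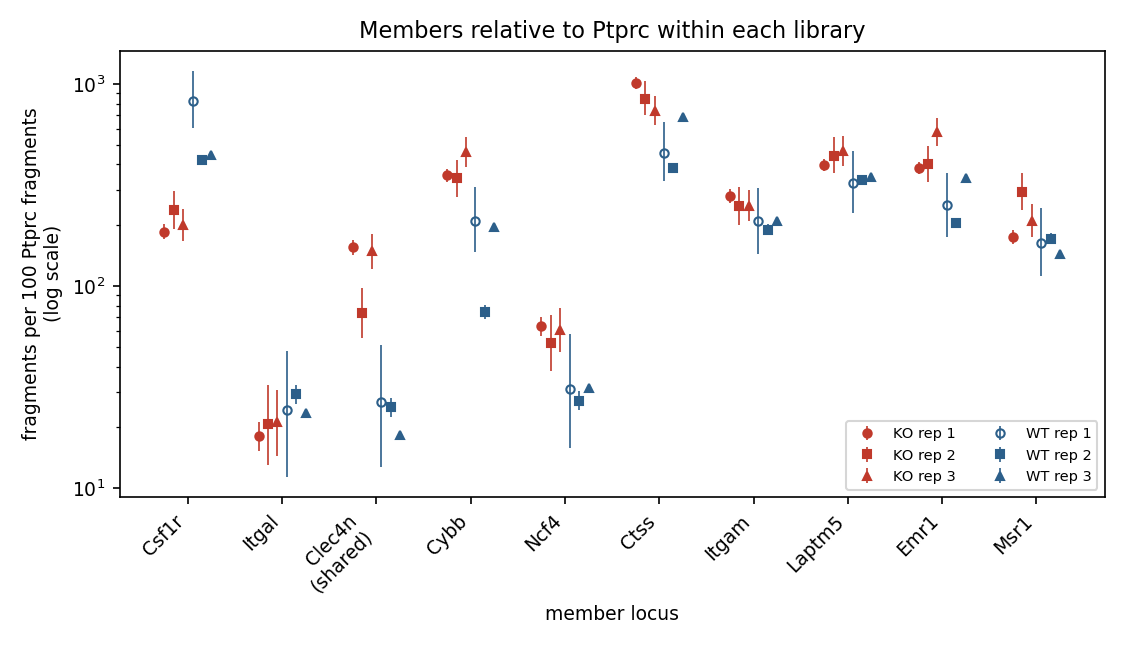
Fragments of each of 10 member loci per 100 fragments of Ptprc in the same library (log scale), KO in red left of WT in blue, with exact 95% intervals for counting error only; WT replicate 1 (open circle) has 45 Ptprc fragments. Csf1r lies lower in all 3 KO libraries, 186 to 237 against 419 to 829, and the shared Clec4n locus higher, 73.3 to 156 against 18.3 to 26.7.

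The same question was put to the fit across all genes by adding the log2 CPM of Ptprc as a covariate, also after the values were seen. It called 0 of 34 members and 0.0% of all genes, and the lowest adjusted p of a member was 0.618 (edgeR), for Csf1r, at a log2 fold change of -1.24 and an unadjusted p of 0.000276. At an unadjusted p under 0.05 there were 10 members higher in KO, where 3.17% of all genes were, and 4 lower, where 1.83% were. The 4 lower were Csf1r, Aif1, Lst1 and Coro1a, and the 10 higher included Clec4n at 2.68, Cybb at 1.56, Ncf4 at 1.26 and Ctss at 1.17 on the log2 scale. Ptprc is itself a member with its own counting error, and with Laptm5 as the covariate 2 members were higher, where 4.22% of genes were, and 6 lower, where 2.71% were.

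KO1 and WT2 offered a pair of libraries of opposite genotype with alike Ptprc, 43.6 and 36.5 CPM, though the pair compares 2 libraries and not the genotypes. Of the 35 loci, 20 lay within 2-fold between them, 26 were higher in KO1 and 9 lower, and the median was 1.42. The share of all genes was not computed for this pair, so these counts are not a result about the members. Fibroblast markers also differed between the 2 libraries, summing to 3330 CPM in KO1 and 27000 CPM in WT2. Clec7a was 25 fold higher in KO1, at 621 fragments against 50 in WT2, Gpnmb 21.8 fold, Clec4n 7.42 fold, Cybb 5.68 fold, Cd14 4.91 fold and Cd53 3.64 fold. In the other direction, WT2 exceeded KO1 by 8.97 fold for Aif1, 3.67 for Alox5ap, 3.38 for Fcgr1, 2.7 for Coro1a and 1.88 for Csf1r.

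Markers of resident macrophages differed further between these 2 libraries. C1qb, a chain of the first complement component, had 11.1, 1.47 and 1.93 CPM in KO1 to KO3, against 0.807, 177 and 2080 CPM in WT1 to WT3. Mrc1, the mannose receptor gene, had 7.7, 1.74 and 1.26 CPM in KO1 to KO3 and 0.651, 89.4 and 552 CPM in WT1 to WT3, and Fcrls had 1.6, 0.0805 and 0.0887 CPM in KO1 to KO3 and 0.17, 133 and 337 CPM in WT1 to WT3; the last 2 genes were named after their values were seen. Of the 12 resident markers, 8 were tested and all 8 had a negative fold change, 6 of them at an unadjusted p under 0.05, where 2.27% of all genes were lower, and 0 at an adjusted one (edgeR). DESeq2 called 5 of the 12 lower at an adjusted p under 0.05, where it called 0.168% of all genes lower: C1qa, C1qc, Mrc1, Cx3cr1 and Fcrls. Summed, the list had 6.95 to 32 CPM in KO libraries and 4.97 to 5270 CPM in WT libraries. KO1 held more Ptprc than WT2 and yet 32 CPM of this list against 675 CPM in WT2. Cd163, Lyve1, Timd4 and Vsig4 stayed under 1 CPM in every library.

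Genes that work with the members were then counted. Of 22 myeloid kinases and signalling adaptors, all 22 had a negative fold change, with a median of -2.5, 0 were called, and 18 had an r over 0.9 with Ptprc. Inpp5d, the inositol phosphatase SHIP1, had 24.8, 2.44 and 2.8 CPM in KO1 to KO3, against 0.963, 44.7 and 272 CPM in WT1 to WT3. It was higher in WT2 than in KO1, as was Csf1r. The list of myeloid transcription factors had 9 genes, among them Nfam1, which encodes a receptor and not such a factor. Of these 9, 7 had a negative fold change (median -2.27), 0 were called, and 4, Nfam1 included, had an r over 0.9 with Ptprc. Ikzf1, a lymphoid and myeloid factor, had 5.64, 0.59 and 0.577 CPM in KO1 to KO3 and 0.184, 9.53 and 58 CPM in WT1 to WT3. Of 14 Toll-like receptors and accessory genes, 11 had a negative fold change (median -1.8) and 0 were called. Tlr8 and Tlr9, receptors of endosomes for nucleic acid, had fold changes of -4.39 and -3.62 with standard errors of 2.33 and 1.7. Among 7 further oxidase and leukotriene genes 3 were negative, with a median of 0.01 and 0 called.

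The growth factor genes Csf1 and Il34 varied far less than the members. Csf1 had 1690, 1490 and 979 CPM in KO1 to KO3, against 1660, 973 and 870 CPM in WT1 to WT3, and Il34, whose product binds the same receptor, had 9.21, 4.64 and 4.95 CPM in KO1 to KO3, against 6.0, 7.12 and 7.14 CPM in WT1 to WT3. Their log2 fold changes were 0.25 and -0.11, with standard errors of 0.34 and 0.33. Csf2, encoding the granulocyte-macrophage factor, had 8.55, 2.9 and 1.31 CPM in KO1 to KO3, against 1.03, 0.0234 and 0.0207 CPM in WT1 to WT3, and did not overlap. Csf3, encoding the granulocyte factor, had 83, 7.78 and 3.88 CPM in KO1 to KO3 and 3.3, 0.445 and 4.04 CPM in WT1 to WT3. Csf2 had an unadjusted p of 0.0656 and Csf3 of 0.0461, and both had an adjusted p of 0.763 (edgeR). Of the 11 tested loci on this list 6 had a negative fold change, the median was -0.11, and 0 were called.

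Of other blood cells, T, NK and B cell markers were scarce and the other lists were mixed. The cells that made this RNA were not tested. Of 10 T and NK cell markers, 9 stayed under 1 CPM in every library, and the list summed to between 0.107 and 0.282 CPM in KO libraries and between 0.0566 and 1.24 CPM in WT libraries. All 7 B cell markers were under 1 CPM throughout. Neutrophil markers were under 1 CPM at 8 of 10 genes, S100a9, Ly6g and Mpo among them, and S100a8 made up most of their sum, with 38.1, 20.5 and 27.5 CPM in KO1 to KO3 and 8.08, 0.0703 and 5.36 CPM in WT1 to WT3. Mast cell and basophil markers were under 1 CPM at 8 of 10 genes, with Cpa3 and Fcer1a at 0 in all libraries, and Mcpt8 alone stood out, at 103, 87.7 and 76.5 CPM in KO1 to KO3 against 21, 26 and 11.7 CPM in WT1 to WT3. The monocyte marker Ccr2 was under 1 CPM in every library, and the monocyte list, mostly Vcan, which fibroblasts also express, summed to between 662 and 771 CPM in KO libraries and between 336 and 845 CPM in WT libraries. Dendritic cell markers summed to between 11.4 and 24.6 CPM in KO libraries and between 7.52 and 18.5 CPM in WT libraries, and endothelial markers to between 6.9 and 12 CPM in KO and between 6.7 and 23.8 CPM in WT. Osteoclast markers summed to 171 to 556 CPM in KO and 147 to 398 CPM in WT. Ctsk, which fibroblasts express too, had 250, 242 and 95.3 CPM in KO1 to KO3 and 200, 89 and 112 CPM in WT1 to WT3. It was not most of the sum in KO1 or WT3. Atp6v0d2 had 74.5 CPM in KO1 and 159 CPM in WT3, above Ctsk in WT3. Erythroid and megakaryocyte markers summed to 15.1 to 33.5 CPM in KO and 10.4 to 40.8 CPM in WT, with Pf4 the highest by the mean of each genotype. Pf4 had 21.6, 1.02 and 3.93 CPM in KO1 to KO3 and 0.156, 13.7 and 29.7 CPM in WT1 to WT3. That is the library order of Ptprc, with which its r was 0.95.

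**Figure D5:**
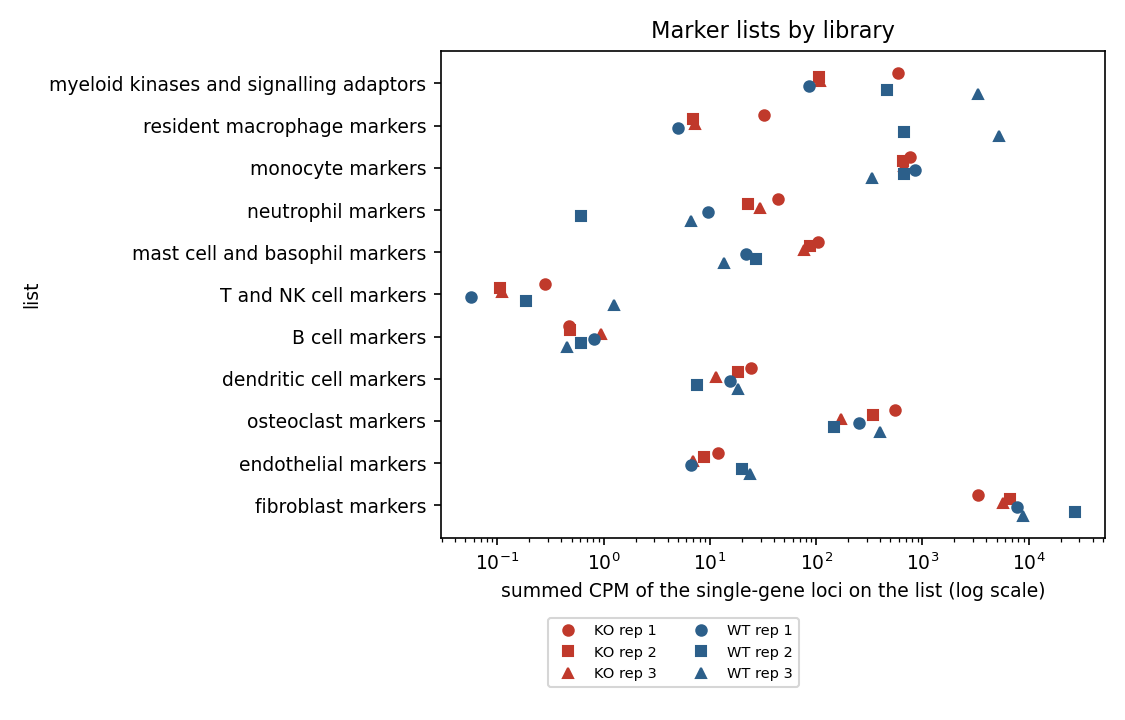
Summed CPM of the single-gene loci on each of 11 lists (log scale), with KO libraries in red and WT libraries in blue and a symbol for each replicate. The kinase and adaptor list runs from 86.4 to 3350 CPM in WT libraries and the resident macrophage list from 4.97 to 5270 CPM, with KO1 far below WT2 on the second, while the T and NK cell list stays at or under 1.24 CPM.

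To find the loci most like the members, those without a member's name were ranked by Pearson r with the members' mean over the 6 libraries. The 10 highest were Pik3ap1, Arhgap25, C3ar1, Sema4d, 4930506M07Rik, Gm885, the Lilrb3 locus, Myo1f, Klhl6 and Nckap1l, at r between 0.997 and 1.0 with n = 6. Of these, the Lilrb3 locus holds Pirb, itself a gene of the list. Pik3ap1 had 59.5, 4.96 and 5.92 CPM in KO1 to KO3, against 0.849, 37.7 and 573 CPM in WT1 to WT3, which is the library order of Ptprc.

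The authors' deposited table gives its own comparison for 14 members, and all 14 were lower in KO, with log2 fold changes from -1.04 for Cd14 to -3.93 for Alox5ap. Alox5ap was the only one with a q under 0.05, at 0.0286, where 12 of 8799 genes in the authors' deposited table (0.136%) were lower at that threshold. Next in the authors' deposited table came Fcgr1, with a q of 0.0891, and Csf1r, with 0.381. The table prints means and no values per library, so the overlap of the groups through WT1 does not appear in it.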

How the data were processed

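Per the file headers, each library's deposited file gives an estimated count of fragments, an FPKM and a status per locus. The submitters' processing notes name CASAVA 1.8.2, TopHat2 2.0.6, Cuffdiff 2.0.1 and the mm10 build without a role or order. The sources used here do not give the strand setting of the counting. The authors' deposited comparison table gives mean FPKM, a log2 fold change of KO over WT, a p-value and a q-value.

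Of 39495 loci, 2667 without a gene name and 16 marked HIDATA were left out, while the 1132 loci with a FAIL mark stayed in. Of values above 0, 24.2% were not whole, so the expected counts were rounded. After filterByExpr and TMM scaling, the robust quasi-likelihood test of edgeR 4.0.16 (R 4.3.3) was run on 15673 loci, with adjusted p under 0.05 as the threshold. The common biological coefficient of variation was 0.467. Alternatives were DESeq2 1.42.0, limma 3.58.1 (voom, or log2(FPKM + 1) and log2(FPKM + 0.1)), RLE and upper quartile scaling, other filters, a non-robust fit, fits without FAIL loci and leaving out each library. Ptprc or Laptm5 covariates and ratios over all 6 libraries were added after seeing the data.

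The members and the gene lists were chosen with earlier results of these data known. All members could be named. Of other genes the rule allowed Stc1, up to 4 of each pathway list with the smallest p, Csf1 and Il34, the highest of each marker list in each genotype, and the 10 loci most like the members. Older symbols were matched through RefSeq. Genes outside these rules were named after their values were seen. Some genes of the lists are not reported here. Every pair of libraries differed beyond sampling noise, with a chi-square of at least 52.1 per degree of freedom. Intervals are exact (Clopper-Pearson, 95%) and, like the limit of 3 counts for a count of 0, cover counting error only.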

Additional observations from a re-analysis of the deposited data

How the results depend on the processing

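No paired analysis was possible because the labels tie no KO library to a WT library; the replicate numbers are only names given in accession order. Beside edgeR's 0 genes in either direction, DESeq2 called 29 genes higher and 32 lower in KO, 1 of them a member (Aif1, log2 fold change -4.79), and limma on log2(FPKM + 0.1) called 1 gene higher. Leaving out each library in turn, the members' median log2 fold change ran from -4.29 to 0.14, Tyrobp from -4.71 to 0.26, Clec4n from -2.33 to 2.44, Itgam from -4.65 to 0.39, Cybb from -3.77 to 2.10, Ncf4 from -4.03 to 1.06, Ctss from -4.65 to 1.20 and Gpnmb from -1.66 to 2.01. The positive values were those without WT3, except that Clec4n, positive with all libraries, turned to -2.33 without KO1, -0.27 without WT1 and -0.03 without WT2. limma-voom turned Cybb to 0.17 and Gpnmb to 0.65, and limma on either FPKM scale turned Gpnmb to 0.63; the cause was not tested. Ptprc ran from -4.92 to -0.14, Csf1r from -5.95 to -1.30, Aif1 from -5.48 to -3.21, Fcgr1 from -4.29 to -1.60 and Alox5ap from -5.74 to -2.19, each weakest without WT3, where Ptprc had an unadjusted p of 0.942 (edgeR). The members' median SD lay between 2.07 and 2.89 without each library. Against Ptprc, loci higher in every KO library numbered 8 with all 6 libraries and 15 without WT1; leaving out one more library beside WT1 gave 15 to 23 higher and 3 to 6 lower. Against Laptm5, of which WT1 has 146 fragments, they numbered 3 higher and 6 lower with all 6 libraries, Ptprc itself among the lower, and 8 higher without WT1. The share of all genes was not computed for the Laptm5 ratios or with a further library left out. Those counts are therefore not a result about the members. With Laptm5 in place of Ptprc as covariate, 2 members were higher at an unadjusted p under 0.05. Ratios in WT1 rest on 45 Ptprc fragments.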
